A study of Mus musculus with 2 samples.

Results

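The genes described are the machinery of insulin granule exocytosis, 48 genes chosen by name for their role, with earlier results of these data known. They cover the SNARE proteins, the Rab3 and Rab27 GTPases with their effectors, the priming factors, the complexins, the SNARE disassembly proteins and the dynamins. Members were the gene probes whose gene name on the array was one of the 48 symbols. All 48 were found, on 83 probes, among 34797 gene names on the array. All 48 had at least 1 probe well above background on both arrays and so belonged to the 22160 genes that were measured. Total RNA was taken from beta cells of CSE knockout mice (CSE-KO) and, as the control, of wild-type mice (CSE-WT), and each genotype had 1 array. All mice were of strain C57BL/6J, were fed a high-fat diet and were 6 months old, so neither group shows cells of mice on a standard diet. Cth is the gene of CSE (cystathionine gamma-lyase), which makes hydrogen sulfide from cysteine. How many animals gave each sample, and how the cells were obtained, are not given in the sources used here.

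Beta cells store insulin in dense-core granules that fuse with the plasma membrane when calcium enters the cell. Fusion is driven by SNARE proteins: a vesicle-associated membrane protein (VAMP) on the granule pairs with a syntaxin and a protein of the SNAP-25 family on the plasma membrane. Rab3 and Rab27 on the granule recruit effectors that bring it to the membrane, Munc13, RIM and CAPS proteins prime it, and complexins and calcium sensors time its fusion. Afterwards NSF and the SNAP adaptors take the SNARE complex apart, and dynamins pinch off the membrane that is taken back.

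Each array carried 60-base probes read in 1 colour, and values are processed fluorescence intensities in arbitrary units. Differences are CSE-KO minus CSE-WT on a log2 scale, after each array was set to its own 75th percentile over gene probes (540 units for CSE-KO and 519 for CSE-WT), so equal intensities give a difference slightly below 0. With 1 array per genotype there was no replicate check and no test, and precision is limited by how few arrays there are. The error given is the spot SD, the scatter of a difference between spots of the same probe at that level, read from 379 probes printed several times. For the members its median was 0.06 log2 units. It holds the scatter of printing, hybridisation and scanning on an array, and nothing of animals or preparations. A gene was counted as past the size rule when its difference was at least 1.5-fold and over 3 spot SDs. The 2 probes of the deleted gene, Cth, read 3.68 and 3.15 units on the CSE-KO array and 12.8 and 13.5 units on the CSE-WT array. Neither was well above background on either array, so they give only a bound on the difference. The 95th percentile of the negative controls was 3.43 units on the CSE-KO array and 4.32 on the CSE-WT array. Both Cth probes lay above it on CSE-WT, while on CSE-KO 3.68 lay above and 3.15 below. These are dim readings of 1 array each and no firm check of the genotype.

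What the probes can show depends on their letters, and the stretches below are those on which the results turn. Coordinates (mouse build mm9) were copied from the array files. The array files do not place the probes within exons or UTRs, and the place of each within its gene was not determined here. Each stretch is 30 bases of the 60, written 5′ to 3′. Capitals in the SNAP-25 family probes mark a run of CA repeats, and capitals in the Rab3c probes mark bases that 2 overlapping probes share.
Snap25 probe 1, chr2:136607709-136607768, plus strand, bases 1 to 30: CACACACACACACACACACAaagtggattt
Snap23 probe 1, chr2:120425750-120425809, plus strand, bases 20 to 49: gataCACACACACACACACACACACAtgaa
Snap23 probe 2, chr2:120426853-120426912, plus strand, bases 1 to 30: gtggcatccaaggtatatttggttagaata
Snap23 probe 3, chr2:120411292-120411905, plus strand, bases 1 to 30: tctcaggatgcaggaatcaagaccatcact
Dnm1 probe 1, chr2:32163995-32164054, minus strand, bases 1 to 30: ctggtagccaccagtcttgctgtctcttgg
Dnm1 probe 2, chr2:32170412-32170471, minus strand, bases 1 to 30: ttgtcaacaagactgtgcgggacctcatgc
Rab3c probe 1, chr13:110850524-110850583, minus strand, bases 1 to 30: ATGTTCTACAGAGTGAGTTCTAGGATAGCA
Rab3c probe 2, chr13:110850530-110850589, minus strand, bases 1 to 30: gctagaATGTTCTACAGAGTGAGTTCTAGG
Rab3c probe 3, chr13:110844454-110844513, minus strand, bases 1 to 30: ctgttaggtatttagtttgtgtgtgaattc

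Differences in the exocytosis machinery between the CSE-KO and CSE-WT arrays were small in fold, and ran in both directions. Of the 48 genes, 18 were within 1.1-fold (37.5%, against 51.7% of all measured genes) and 30 within 1.2-fold (62.5%, against 77%). Their median absolute difference was 0.17 log2 units, against 0.13 over all genes. The median difference was -0.05 log2 units, against -0.01 over all measured genes, and 21 members were higher and 27 lower in CSE-KO, where 48.7% of all genes were higher and 51.3% lower. Dnm1, a dynamin, was past the size rule, at 1.96-fold higher in CSE-KO. That is 1 of 48 members higher, where 2.04% of all measured genes were, and 0 of 48 lower, where 1.59% were. These shares lie near the background. No member reached 2-fold, where 0.69% of all genes were higher and 0.79% lower. Without a minimum fold, 8 members were higher by over 3 spot SDs (8.72% of all genes were) and 5 lower (9.42% were). They were Snap25, Snap23, Vamp1, Unc13b, Rab3c, Rab3d, Sytl1 and Dnm1 on the higher side and Stx3, Vamp7, Sytl3, Sytl4 and Rph3al on the lower side. The 13 genes are 27.1% of the members, against 18.1% of all genes. Brighter probes have smaller spot SDs, and among genes above the median level 11 of 30 members were over 3 spot SDs in either direction, against 23.8% of all such genes. These were 7 higher, against 10.1% of such genes, and 4 lower, against 13.7%. No member probe was above background on 1 array only, and no member probe was saturated.

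**Figure D1:**
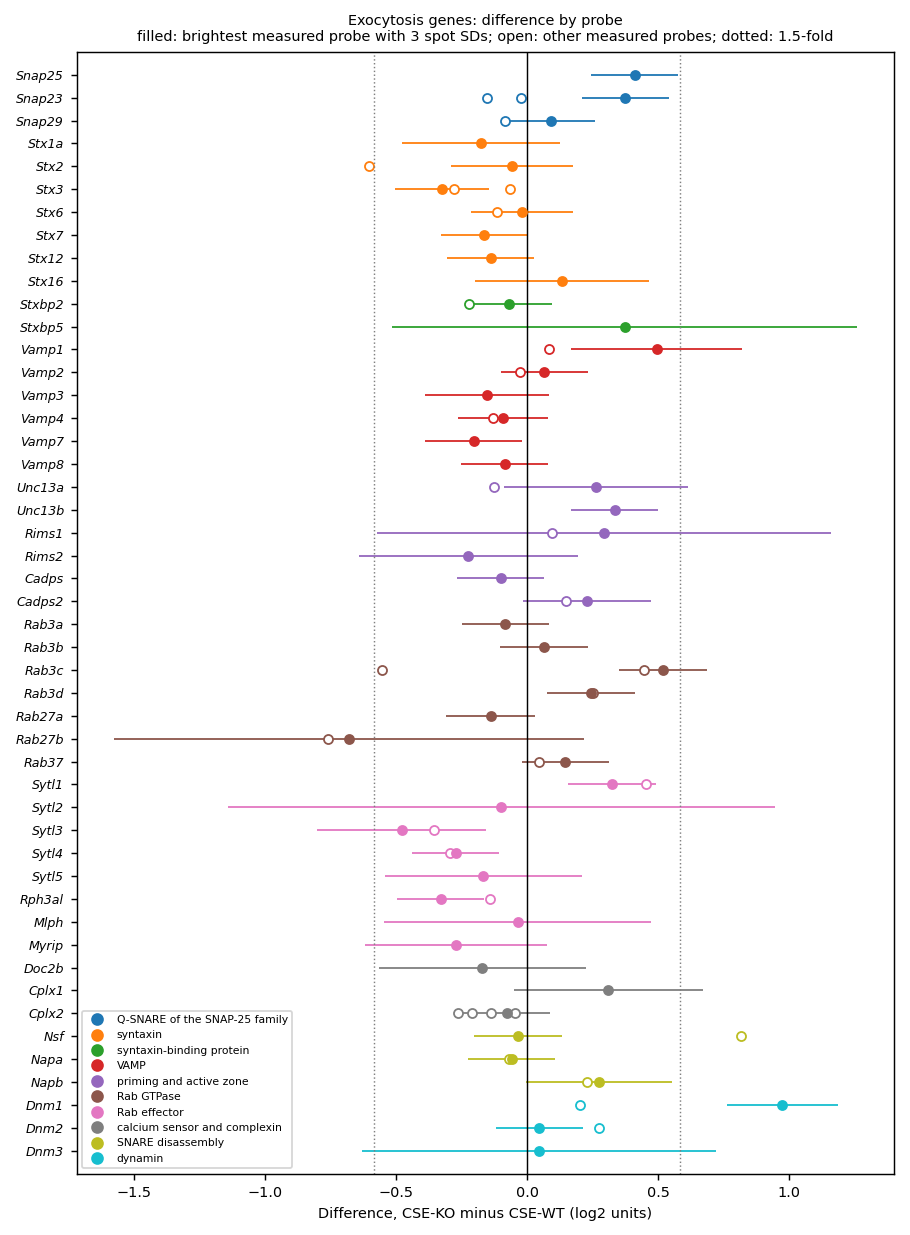
Difference of each member (CSE-KO minus CSE-WT, log2 units, x axis) by gene and coloured by role. Filled points are the brightest measured probe with a bar of 3 spot SDs, open points the other measured probes, and dotted lines mark 1.5-fold. Dnm1, at 0.97, is the filled point beyond the dotted lines whose bar does not reach 0.

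**Figure D2:**
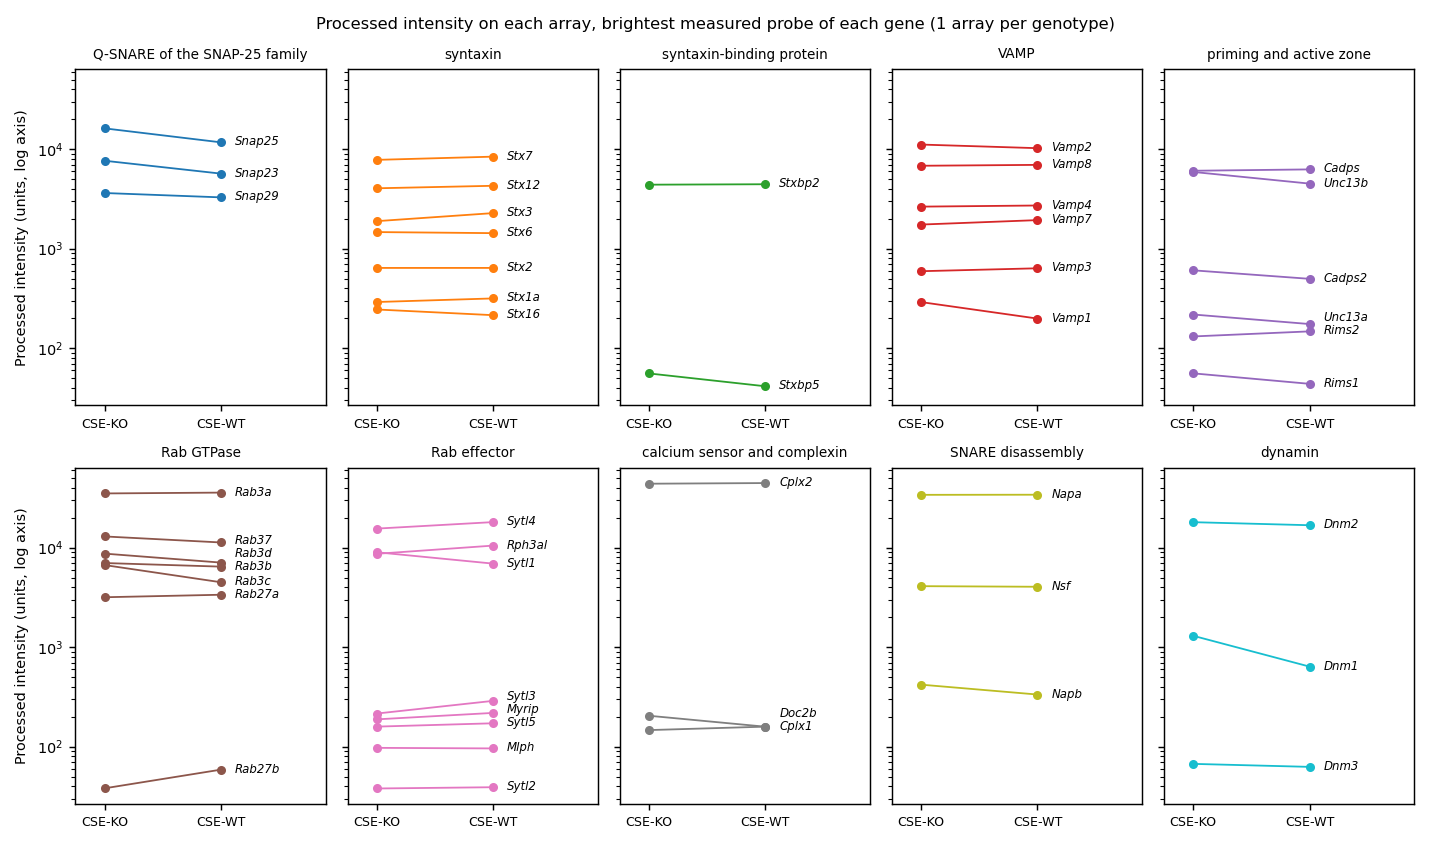
Processed intensity (units, log axis) of the brightest measured probe of each member on the CSE-KO array (left) and the CSE-WT array (right), by role, 1 array per genotype. Nearly flat lines, as for Rab3a and Cplx2, join near-equal intensities, and Dnm1 has the steepest line.

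The SNAP-25 family supplies the SNAREs that pair with a syntaxin, and all 3 members were higher in CSE-KO by their brightest probe. Over all genes 48.7% were higher. Snap25, the family member that pairs with syntaxin 1A in regulated insulin release, had a single probe. It read 16150.4 units in CSE-KO and 11689 units in CSE-WT, a difference of 0.41 (1.33-fold, 7.41 spot SDs). Snap23, its widely expressed relative, had 3 probes. Probe 1 read 7638 units in CSE-KO and 5669 in CSE-WT, a difference of 0.37 (6.75 spot SDs). Probe 2 read 802 units in CSE-KO and 859 in CSE-WT (-0.15), and probe 3 read 518 in CSE-KO and 506 in CSE-WT (-0.02). The probes of Snap23 thus disagreed, and the higher value was that of the probe with the repeat. Snap29, which acts on internal membranes, read 3621 units in CSE-KO and 3274 in CSE-WT (0.09), with a second probe at -0.08, both within 3 spot SDs.

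The probes behind the higher values of Snap25 and Snap23 share 20 bases of CA repeat, the longest run that probes of different members had in common. Probes with CA repeated 8 times were rare, at 34 of the gene probes (0.0611%), and all 34 were above background on both arrays, against 55.4% of all gene probes. The 32 that belong to other genes were all higher in CSE-KO, by a median of 0.36 log2 units (lowest 0.12, highest 0.52). The differences of Snap25 and of Snap23 probe 1 lie inside the middle of that range (10th to 90th percentile 0.26 to 0.45). The complementary repeat went the other way: of 71 probes with TG repeated 8 times, 69 were lower and 2 higher in CSE-KO, with a median of -0.19. These values describe letters that probes of many genes share, and the part of the repeat in the Snap25 and Snap23 readings was not tested. With repeat probes left out, an alternative chosen after seeing the data, Snap25 has no probe left and Snap23 has a difference of -0.15. The members over 3 spot SDs are then 6 higher and 5 lower of 47. With repeat probes kept, 8.72% of all genes were higher and 9.42% lower by as much. The shares of all genes without repeat probes were not computed.

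**Figure D3:**
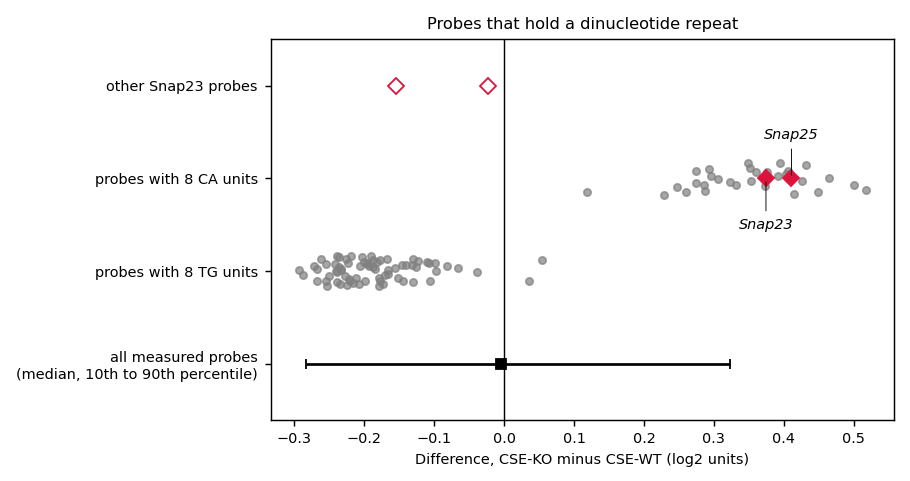
Difference between the arrays (CSE-KO minus CSE-WT, log2 units, x axis) of probes that hold 8 CA or 8 TG units, 1 grey point per probe of another gene, with the member probes in red. The bar is the median with the 10th to 90th percentile of all measured probes. The CA probes lie between 0.12 and 0.52, with Snap25 and Snap23 among them, and the other Snap23 probes (open) lie at -0.15 and -0.02.

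The 7 syntaxins are membrane SNAREs that partner SNAP-25 or act on endosomes and the Golgi. In CSE-KO 6 were lower and 1 higher, with a median of -0.14, where 51.3% of all genes were lower. Stx1a, the plasma membrane syntaxin of regulated insulin release, read 291 units in CSE-KO and 316 in CSE-WT, a difference of -0.18 (1.75 spot SDs). Stx3, a plasma membrane syntaxin also found on insulin granules, was the member of the group over 3 spot SDs. Its brightest probe read 1889 units in CSE-KO and 2275 in CSE-WT, a difference of -0.32 (1.25-fold lower, 5.41 spot SDs). A further Stx3 probe was printed 10 times on each array. Its 9 usable spots on the CSE-KO array averaged 435.9 ± 12.04 units (SD between spots, 415.8 to 453.0), and its 10 spots on the CSE-WT array averaged 509.5 ± 17.95 units (482.5 to 543.6). These spots are repeats on an array and not further samples, and other probes printed several times were not compared in this way. The third Stx3 probe read 110.3 units in CSE-KO and 111 in CSE-WT (-0.07). The remaining syntaxins were within 3 spot SDs. Stx7 and Stx12, of endosomes, were at -0.16 and -0.14, Stx6 and Stx16, of the trans-Golgi network, at -0.02 and 0.13, and Stx2, a plasma membrane syntaxin, at -0.06, with a dim second probe at -0.60 (1.23 spot SDs).

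Stxbp2 and Stxbp5 encode partners of the syntaxins. Stxbp2 (Munc18-2), which chaperones a syntaxin into the SNARE complex, read 4391 units in CSE-KO and 4435 in CSE-WT (-0.07), and its second probe was at -0.22. Stxbp5 (tomosyn), which competes with VAMP for the syntaxin pair, read 55.8 units in CSE-KO and 41.5 in CSE-WT. Its difference of 0.37 was only 1.26 spot SDs, because dim spots scatter more.

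The VAMPs are the granule and vesicle SNAREs. Vamp2, the main VAMP of insulin granules, read 11106 units in CSE-KO and 10212 in CSE-WT (0.07). Its second probe read 194 units in CSE-KO and 189.6 in CSE-WT (-0.03), and both differences were within 3 spot SDs. Vamp1, its close relative best known from neurons, read 291 units in CSE-KO and 198 in CSE-WT, a difference of 0.49 (1.41-fold higher, 4.53 spot SDs). A dim second Vamp1 probe read 23.0 units in CSE-KO and 20.9 in CSE-WT (0.08). Vamp7, a VAMP of late endosomes and lysosomes, read 1746 units in CSE-KO and 1935 in CSE-WT, a difference of -0.20 (3.32 spot SDs), on its single probe. Vamp8, which has been tied to newly arriving insulin granules, was at -0.09, Vamp3 of recycling endosomes at -0.15 and Vamp4 of the trans-Golgi network at -0.09, all within 3 spot SDs.

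Priming factors and active zone proteins make docked granules ready to fuse. Unc13b (Munc13-2) read 5894 units in CSE-KO and 4499 in CSE-WT on its single probe, a difference of 0.33 (1.26-fold higher, 6.02 spot SDs). Unc13a (Munc13-1), the priming factor best studied in beta cells, gave 2 probes that disagreed within noise. They read 218 and 139.8 units in CSE-KO, against 175 and 147 units in CSE-WT, for differences of 0.26 and -0.13. Rims2, the RIM isoform that links granules to calcium channels in beta cells, read 131 units in CSE-KO and 148 in CSE-WT (-0.22, 1.61 spot SDs). Rims1 was at 0.29, at only 1.02 spot SDs. Cadps (CAPS1), a priming factor of dense-core granules, read 6058 units in CSE-KO and 6252 in CSE-WT (-0.10, 1.82 spot SDs). Its relative Cadps2 read 606 units in CSE-KO and 497 in CSE-WT (0.23, 2.79 spot SDs), with a second probe at 0.15. A further 2 Cadps2 probes were not well above background on either array. They and the third Sytl3 probe are the 3 member probes of 83 that were not measured.

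The 7 Rab GTPases mark the granule. Rab3a, the best known Rab of secretory granules, read 34946 units in CSE-KO and 35629 in CSE-WT (-0.08, 1.51 spot SDs). Rab27a, the Rab of insulin granule docking, read 3168 units in CSE-KO and 3357 in CSE-WT (-0.14, 2.46 spot SDs). The Rab27a spot lies in an area of the slide where the 11 dim neighbours had a median difference in intensity of -49.2 units (CSE-KO minus CSE-WT), and the part of this in its value was not tested. Rab3d, a relative found on granules of exocrine cells, was higher in CSE-KO by both probes. They read 8689 and 1291 units in CSE-KO, against 7059 and 1043 units in CSE-WT, for differences of 0.24 and 0.25 (4.40 and 3.73 spot SDs). Rab3b was at 0.06, a sign that turned under another background correction, and Rab37 was at 0.15 and 0.05 by 2 overlapping probes.

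Rab3c gave the largest disagreement among probes of 1 member. Probes 1 and 2, which overlap by 54 of 60 bases, read 6669 and 3496 units in CSE-KO, against 4480.1 and 2471 units in CSE-WT. Their differences were 0.52 and 0.44 (1.43-fold and 1.36-fold higher, 9.35 and 7.83 spot SDs). Because they share most of their bases they are not separate evidence. Probe 3, elsewhere in the gene, read 170.2 units in CSE-KO and 240.2 in CSE-WT, a difference of -0.55 (4.79 spot SDs). Probes 1 and 2 also hold a 10-base run found in 13 measured probes of other genes. Of those, 8 were higher and 5 lower in CSE-KO, with a median of 0.13. The part of this run in the Rab3c values was not tested. The Rab3c readings were therefore higher at one place and lower at another, each beyond spot noise, and no direction is given for the gene.

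Rab27b, the Rab27 relative of many secretory cells, was dim. Its 2 probes read 38.2 and 19.9 units in CSE-KO, against 58.8 and 32.5 units in CSE-WT. The differences of -0.68 and -0.76 were 1.60-fold and 1.69-fold lower but only 2.27 and 1.70 spot SDs, so the gene did not pass the size rule.

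The Rab effectors link Rab3 and Rab27 to the membrane, to actin or to SNAREs, and 7 of 8 were lower in CSE-KO, with a median difference of -0.22. Over all genes 51.3% were lower. By over 3 spot SDs, 3 of the 8 effectors were lower, against 9.42% of all genes and 13.7% of genes above the median level. Sytl4 (granuphilin), which docks insulin granules through Rab27a and syntaxin 1A, was lower by both probes. They read 15492 and 506 units in CSE-KO, against 18010.2 and 597 units in CSE-WT, for differences of -0.27 and -0.29 (4.92 and 3.60 spot SDs). Rph3al (Noc2), which binds Rab3 and Rab27 and is needed for normal insulin release, read 8649 units in CSE-KO and 10461 in CSE-WT, a difference of -0.33 (1.26-fold lower, 5.95 spot SDs). Its second probe read 183 units in CSE-KO and 194 in CSE-WT (-0.14, 1.19 spot SDs). Sytl3, a Rab27-binding synaptotagmin-like protein, read 215 units in CSE-KO and 288 in CSE-WT, a difference of -0.48 (1.39-fold lower, 4.45 spot SDs), and its second measured probe was at -0.36. Sytl1, another of this family, was the effector that went the other way. Its probes read 8966 and 1313 units in CSE-KO, against 6894 and 922 units in CSE-WT, for differences of 0.32 and 0.45 (5.83 and 6.67 spot SDs). Myrip, which ties Rab27a granules to myosin and actin, was at -0.27, Sytl5 at -0.17, Sytl2 at -0.10 and the melanosome effector Mlph at -0.04. All of these were within 3 spot SDs.

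Complexins clamp and then promote fusion, and Doc2b is a calcium sensor. Doc2b read 147 units in CSE-KO and 159 in CSE-WT (-0.17, 1.30 spot SDs). Cplx1 read 204 units in CSE-KO and 159 in CSE-WT (0.31, 2.59 spot SDs). Cplx2 had 5 probes, all lower in CSE-KO after scaling. Probes 1 to 5 read 43767, 18963, 16745, 12713 and 7733 units in CSE-KO, against 44432, 20092, 16651, 14139 and 8939 units in CSE-WT. Their differences were -0.08, -0.14, -0.05, -0.21 and -0.26, and those of probes 4 and 5 were over 3 spot SDs (3.77 and 4.77). Probes 2 and 3 are placed by the array files away from the other Cplx2 probes, probe 3 on chromosome 5. Probes 2, 3 and 4 share runs of at least 14 bases with 34, 36 and 32 probes of other genes, of which 31, 34 and 31 were lower in CSE-KO. The part of such shared letters in the Cplx2 values was not tested.

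Among the SNARE disassembly genes, Nsf and Napa were near equal on the arrays by their brightest probes. Nsf, the ATPase that pulls spent SNARE complexes apart, read 4093 units in CSE-KO and 4037 in CSE-WT (-0.04). A dim second Nsf probe read 57.9 units in CSE-KO and 31.6 in CSE-WT, a difference of 0.82 at 2.53 spot SDs. The sign for Nsf depended on the probe and turned under 2 alternatives. Napa (alpha-SNAP), the adaptor that loads NSF, read 33835 and 6717 units in CSE-KO, against 33926 and 6776 units in CSE-WT, for differences of -0.06 and -0.07 (the first turned sign under cyclic loess scaling). Napb (beta-SNAP), the neuronal form, read 419.6 and 288 units in CSE-KO, against 334 and 237 units in CSE-WT, at 0.27 and 0.23 (2.96 and 2.14 spot SDs).

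The dynamins held the 1 member past the size rule. Dnm1, the neuron-enriched dynamin of rapid membrane retrieval, read 1299 units in CSE-KO and 637 in CSE-WT by probe 1, a difference of 0.97 (1.96-fold higher, 13.8 spot SDs). Probe 2, some way off in the gene, read 374 units in CSE-KO and 312 in CSE-WT, a difference of 0.20 (1.15-fold, 2.11 spot SDs). Both probes were higher in CSE-KO, but by unlike amounts, and the larger rests on probe 1. Around the spot of probe 1 the 8 dim neighbours differed by a median of 0.51 units (CSE-KO minus CSE-WT). On the log2 scale their median difference lay 0.44 above that of all dim spots. A shift of 0.5 was needed to mark an area of dim-spot shift. The part of this in the Dnm1 value was not tested. Over the 11 alternatives that gave a value the Dnm1 difference ran between 0.59, for the mean over its probes, and 0.98. Dnm2, the dynamin found in all cells, read 17979 units in CSE-KO and 16752 in CSE-WT (0.05), and its second probe was at 0.27 (3.97 spot SDs). Dnm3 was at 0.04, within 1 spot SD.

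**Figure D4:**
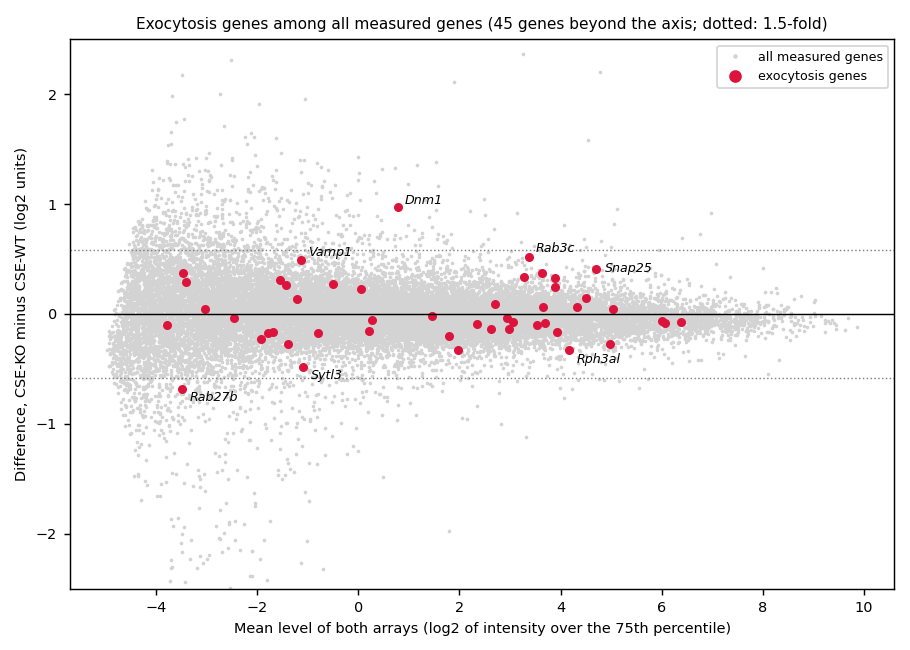
Difference (CSE-KO minus CSE-WT, log2 units) against the mean level of both arrays (log2 of intensity over the 75th percentile) for all 22160 measured genes in grey, with the 48 exocytosis genes in red and 45 genes beyond the axis. Dotted lines mark 1.5-fold. Scatter widens towards dim genes, where Rab27b lies, and Dnm1 stands above the members of like level.

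Agreement between probes of a gene is a check that spot noise does not give. Of the 48 members, 22 had 1 probe and 26 had 2 or more measured probes. In 20 of the 26 all measured probes lay on 1 side of 0, which is 76.9%, against 56.2% of 6129 genes with several measured probes. Rab37 and Cplx2, among the 20, each have a pair of overlapping probes, which are not separate evidence. The members were also brighter than most genes (median percentile of level 71.9), and no share matched for level was computed. The 6 whose probes disagreed in sign were Snap23, Snap29, Vamp2, Unc13a, Rab3c and Nsf. Probes differed from each other by at least 0.5 log2 units in 5 of the 26 (Snap23, Stx2, Rab3c, Nsf and Dnm1), against 16% of such genes. Rab3d, Sytl1 and Sytl4, 3 of the 26, were the members with every measured probe over 3 spot SDs on 1 side. The share of all genes with this trait was not computed, so the 3 have no background to be read against. Of the 13 members over 3 spot SDs, Snap25, Vamp7 and Unc13b rest on a single probe. At or past 1.4-fold were Dnm1, Rab3c, Vamp1 and Rab27b.

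Other genes of the pathway were read for comparison. A list of 71 names, chosen by role, covered further syntaxins, Munc18 proteins, SNAREs, Rab3 regulators, effectors, active zone proteins, the exocyst and membrane retrieval. Of these, 68 were on the array and 61 were measured, with 29 higher and 32 lower in CSE-KO and a median of -0.01. Past the size rule were 1 higher and 1 lower, where 3.64% of all genes passed in either direction. Vamp5, a SNARE of muscle and other plasma membranes, read 1464 units in CSE-KO and 914 in CSE-WT, a difference of 0.62 (1.54-fold higher, 9.25 spot SDs). Rims3, a short RIM of the active zone, read 20161 and 304 units in CSE-KO, against 30982 and 426 units in CSE-WT. Its differences were -0.68 and -0.54 (1.60-fold and 1.46-fold lower, 12.2 and 5.77 spot SDs), so both probes were lower. Over 3 spot SDs were 6 of the 61 higher, against 8.72% of all genes, and 8 lower, against 9.42%. Among the 8, Madd, an exchange factor of Rab3, was at -0.18 by a probe that holds the TG repeat and at 0.27 (3.09 spot SDs) by its second probe, so its probes disagreed. All 9 genes of the exocyst, the complex that tethers vesicles to the plasma membrane, were measured, with 4 higher and 5 lower. Exoc2, Exoc5 and Exoc6 were among the 8 lower by over 3 spot SDs, at -0.20, -0.21 and -0.30, and the second Exoc6 probe was at -0.05 (0.28 spot SDs).

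**Figure D5:**
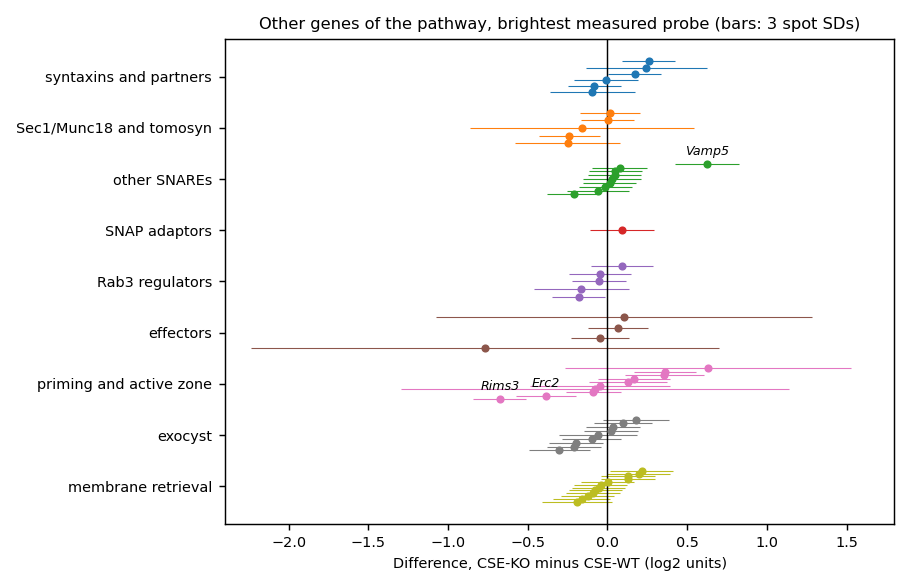
Difference (CSE-KO minus CSE-WT, log2 units, x axis) of the 61 measured genes of the pathway outside the 48 members, by role, with bars of 3 spot SDs. Vamp5 at 0.62 and Rims3 at -0.68 lie furthest from 0 among genes whose bar does not reach it.

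Many exocytosis genes are shared by all endocrine cells of the islet and by neurons, so markers of these cells were read on the same arrays. All 10 beta cell markers were measured, with a summed intensity of 1399440 units in CSE-KO and 1451760 in CSE-WT and a median difference of -0.09. All 6 alpha cell markers were also measured and all were lower in CSE-KO, with a median of -0.50 and a sum of 549544 units in CSE-KO and 596800 in CSE-WT. In bulk samples, fewer cells of a type and less RNA per cell cannot be told apart. The 2 delta cell markers summed to 235912 units in CSE-KO and 235183 in CSE-WT, and all 10 acinar markers to 476755 units in CSE-KO and 482861 in CSE-WT. The labelled cell type therefore had its markers, together with markers of other pancreatic cells. All 8 neuronal and glial markers were measured, 4 higher and 4 lower, and summed to 3234 units in CSE-KO and 3359 in CSE-WT. Most of that sum was Tubb3 and Uchl1, both lower, while Prph, a neuronal intermediate filament gene, read 148 units in CSE-KO and 79.2 in CSE-WT (0.84, 5.26 spot SDs). Of 6 measured macrophage markers 5 were higher, with a median of 0.21 and a sum of 12932 units in CSE-KO and 10458 in CSE-WT. All 3 erythroid markers were lower, with a median of -0.54 and a sum of 21171 units in CSE-KO and 28575 in CSE-WT. All 4 stellate and fibroblast markers were higher, at 925 units in CSE-KO and 534 in CSE-WT, as were all 3 proliferation markers, at 1332 units in CSE-KO and 518 in CSE-WT. The part of these other cells in the exocytosis differences was not tested.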

How the data were processed

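RNA of 2 samples was hybridised to 2 one-colour arrays on 1 slide. Per the file headers, Agilent Feature Extraction 10.7.1.1 gave each spot a processed intensity (the submitters' processing notes name 9.5.1.1), and the authors also deposited a table of processed intensities on a linear scale, used as an alternative. That table had a median of 37.7 in both columns and r of 0.9999 and 0.9998 with its own CSE-KO and CSE-WT array across probes. The equal medians show that its columns had been set to a common scale, so it is not separate from the scaling alternatives. The median difference of the members was -0.03 under it and -0.03 under quantile scaling. No centring was seen and its exact steps remain unknown. Each array held 59305 gene spots for 55681 probes; 169 spots flagged as outliers on the CSE-KO array and 139 on the CSE-WT array were left out. Spots of a probe were averaged and the log2 of the intensity was set to the 75th percentile over gene probes. A probe was measured when flagged well above background on both arrays, and a gene took the value of its brightest measured probe. Gene names are those of the array files; 74 of the 83 member probes had an accession found in a RefSeq gene table, all with the same symbol.

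The members and lists were chosen with earlier results of these data known. All 48 members were accounted for by role. Every probe was given for members past the size rule, members whose probes differed in sign with 1 past 1.5-fold, and a fixed core (Snap25, Stx1a, Vamp2, Rab3a, Rab27a, Sytl4, Unc13a, Rims2, Cadps, Rph3al, Doc2b, Cplx1, Cplx2, Nsf, Napa). Other values were named after they had been seen. Counts over 3 spot SDs of any size, and the settings without repeat probes and without areas of dim-spot shift, were added after seeing the data. Python 3.11.15, numpy 2.4.6, pandas 2.3.3, R 4.3.3 and limma 3.58.1 were used.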

Additional observations from a re-analysis of the deposited data

How the results depend on the processing

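Other settings were quantile, median and cyclic loess scaling, a normexp background with an offset of 50, the authors' table, no filter on dim probes, the mean over probes, outlier spots kept, a 2-fold size rule, and leaving out probes in areas of local shift or with repeats. The count of members higher past the rule was 1 under each of these except the 2-fold rule, where it was 0, and no member was lower past the rule under any. Under the mean over probes Dnm1 was at 0.588, barely past the cut of 0.585 log2 units, so its call rests on probe 1. The median difference of the members ran between -0.07 and -0.0048. Of the 48 members, 44 kept 1 sign under every alternative that gave a value. Some settings could not turn a sign, however. No member probe lay in an area of local shift over all gene spots. The mean over probes cannot change the 22 members with 1 probe. The sign turned for Rab3b, Nsf, Napa and Snap23, and without the repeat probes Snap23 was at -0.15. Over all genes, the 453 higher became 218 under normexp and 153 under the 2-fold rule. The 353 lower became 228 under normexp, 175 under the 2-fold rule and 773 with no filter on dim probes. The 2-fold counts are smaller by construction, and for the others the cause was not tested.

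No scaling moved the median of all genes by over 0.1 log2 units. Every scaling sets the arrays to a common level, so this was largely fixed in advance and is no check of the results. Slide or scan as a block was not run, since 1 array per genotype leaves nothing to fit. No paired analysis was possible because each genotype has 1 array. Signal limits the dim members: the spot SD of a difference was 0.22 at a scaled level of -3 and 0.06 at 4, so the differences of Rab27b, Stxbp5 and Rims1 lie within 3 spot SDs.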
